A study of Mus musculus with 7 samples.

Results

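The genes of the MHC class II system were examined in retinal microglia (rMG) of Irf8-deficient mice. The group was set by gene name and holds 9 of the 40743 genes listed: H2-Aa, H2-Ab1 and H2-Eb1, Cd74, H2-DMa and H2-DMb1, H2-Oa and H2-Ob, and Ciita. The rule itself uses no measured value.

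Class II molecules are pairs of an α and a β chain that carry peptides from endocytosed protein to the cell surface, where CD4+ T cells read them. In the endoplasmic reticulum the pair is held by the invariant chain CD74, which is later cut down to a fragment that H2-DM exchanges for peptide, while H2-O restrains H2-DM. CIITA, the class II transactivator, binds no DNA itself and works through the RFX, CREB and NF-Y factors seated on the X and Y boxes of class II promoters. Dendritic cells and B cells make class II constantly, whereas resting microglia hold little and raise it on activation, classically through interferon-γ.

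All 7 libraries came from Irf8-/- mice (Irf8 KO) of a C57BL/6J background devoid of the Crb1 mutation, in which GFP replaces 1 allele of Cx3cr1 (Cx3cr1 GFP/+). The 3 unlasered libraries were made from uninjured retinae. The 4 lasered libraries were made 7 days after laser burns that provoke choroidal neovascularisation (CNV), an ingrowth of vessels from beneath the retina, and from the central 70% of the retina only, so laser and retinal region cannot be told apart. Each library held on average 10000 cells, sorted as CD45 low, CD11b+, GFP+, Ly6C- and Ly6G-, from 3 to 4 pooled mice, and Irf8-competent libraries were not analysed here. Irf8 encodes the transcription factor that microglia and several dendritic cell types need for their development. Nothing in the labels ties a pool to the mice of another pool, so the p-values measure the spread between these pools. Values are CPM, the reads of a gene scaled to an equal total of assigned reads in every library. Totals ran from 20427558 to 36022954 reads in unlasered and from 37133297 to 45919042 in lasered libraries, and 3 reads, the limit that a count of 0 allows, equal 0.0653 to 0.147 CPM (counting error only). Microglial markers were high in all libraries, although Sall1, a defining microglial factor, stayed between 0 and 1.36 CPM. The 9 markers summed to 22363, 17797 and 17628 CPM in unlasered 1, 2 and 3. In lasered 1, 2, 3 and 4 they summed to 15875, 15080, 18931 and 20296 CPM, so lasered 1 and 2 had the lowest sums of the 7 libraries. The Irf8 entry, which shares its reads with the overlapping Gm20388, was read at 489 to 530 CPM in unlasered and 463 to 582 CPM in lasered libraries. The sources used here do not say which exons were deleted, so this level does not check the genotype.

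Of the members, 7 lie together in the class II region of chromosome 17, between 34092340 and 34316674 (GRCm38). Ciita lies on chromosome 16 (10480059 to 10528418). RefSeq promoter windows (GRCm38.p6, 250 bases before to 50 after a gene's start) were at hand for 6 of the 9 members, all of them on chromosome 17, and H2-Ab1, Cd74 and Ciita had none in the table. The Y box, where NF-Y binds, was searched as ATTGG and GATTGG, the core of the X box, where RFX binds, as AGCAAC, and the neighbouring X2 box, where CREB binds, as TGACG, each on both strands. ATTGG is contained in GATTGG. Of the members with a window, 5 held GATTGG on the gene's own strand starting 70 to 40 bases before the start (H2-Aa, H2-Eb1, H2-Oa, H2-Ob and H2-DMb1), as did 1.88% of all 32851 windows. This position was chosen after the matches were seen. The stretches below, 110 to 31 bases before the start, are shown because the members they belong to share these letters while differing widely in how far their levels moved. Capitals mark AGCAAC and GATTGG on the gene strand.

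H2-Aa, chr17:34287854-34287933, minus strand: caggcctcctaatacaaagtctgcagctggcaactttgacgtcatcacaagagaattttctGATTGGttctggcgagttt

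H2-Eb1, chr17:34305757-34305836, plus strand: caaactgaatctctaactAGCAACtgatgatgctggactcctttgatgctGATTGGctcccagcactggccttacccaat

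H2-Ob, chr17:34238795-34238874, plus strand: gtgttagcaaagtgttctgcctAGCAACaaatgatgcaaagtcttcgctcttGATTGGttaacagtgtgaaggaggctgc

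H2-Oa, chr17:34092269-34092348, plus strand: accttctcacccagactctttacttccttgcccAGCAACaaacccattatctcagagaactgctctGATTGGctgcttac

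In H2-Eb1, H2-Ob and H2-Oa, AGCAAC started 32, 30 and 33 bases ahead of GATTGG. This spacing, again picked after it was seen, was present in 6 of the 32851 windows, or 0.0183%. H2-Aa held no AGCAAC but had TGACG on both strands, 74 and 71 bases before its start. The last 9 bases of the H2-Oa stretch fall inside the gene as GENCODE M21 draws it. The H2-DMb1 stretch lies wholly inside that annotation's gene and is not printed, and of the 2 windows of H2-DMa the first held none of the letters and the second had GATTGG 199 bases before its start. Over all windows, ATTGG was present in 37.4%, GATTGG in 16.1%, AGCAAC in 14.8% and TGACG in 20.8%. A spaced core of the interferon-stimulated response element and one of the composite ETS-IRF element, at which IRF8 can bind beside PU.1, were in no member's window and in 3.44% and 2.72% of all windows. A match of letters is a description and not a binding site, and the absence of one says nothing of the factor.

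The comparison of lasered with unlasered libraries asks how the class II system of Irf8-deficient rMG stood 7 days after injury. The genes of the surface chains and Cd74 were many times higher in lasered 1 and lasered 2 than in any unlasered library, whereas lasered 4 lay among the unlasered libraries. The difference between the groups therefore came with a very wide spread, and none of the 9 members passed the test across all genes (limma on log2(CPM + 1), two-sided, Benjamini-Hochberg adjusted over 17496 genes, threshold 0.05). Of all genes tested, 6.93% passed, 3.86% as higher and 3.07% as lower in lasered libraries. At an unadjusted p under 0.05, 4 members were higher (H2-Aa, H2-Ab1, H2-Eb1 and H2-Oa), where 11.0% of all genes were, and edgeR's quasi-likelihood test on the recovered reads called 1 member, H2-Oa, as higher, where 7.24% of all genes were called and 3.78% as higher. The median log2 difference of the members was 1.27 and that of all genes tested was -0.01. All differences below are of log2(CPM + 1), lasered minus unlasered, which understates the change of genes read at few CPM.

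**Figure D1:**
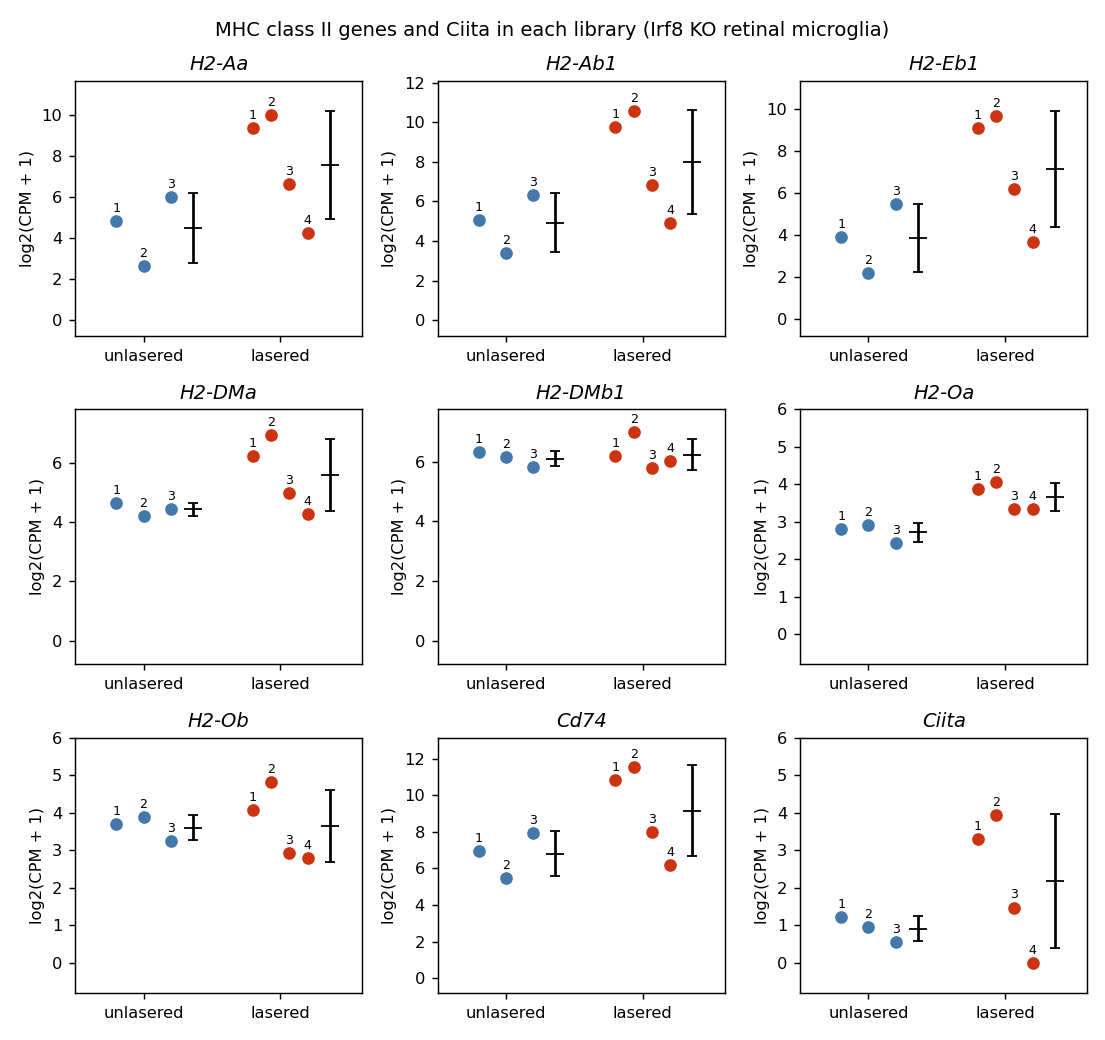
Level of each of the 9 genes, as log2(CPM + 1), in the 3 unlasered (blue) and 4 lasered (red) libraries, with the replicate number above each point and the mean ± SD of each group as a bar to its right. Lasered 2 is the highest library for all 9 genes, and only for H2-Oa do all 4 lasered libraries lie above all 3 unlasered ones.

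H2-Ab1 encodes the β chain of the I-A molecule, one of the class II isotypes that mouse cells display. It was read at 32.9, 9.49 and 79.4 CPM in unlasered 1, 2 and 3 and at 858, 1497, 114 and 28.6 CPM in lasered 1, 2, 3 and 4. In this gene 3 of the 4 lasered libraries thus stood above every unlasered one, while lasered 4 stood below unlasered 1 and 3. The means were 40.6 ± 35.6 CPM (SD, n = 3) and 625 ± 691 CPM (SD, n = 4), and the log2 difference was 3.07 ± 1.28 (SE), with a 95% interval of 0.17 to 5.97 and an adjusted p of 0.196 by limma.

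H2-Aa encodes the α chain that pairs with it. Its levels were 27.0, 5.08 and 63.3 CPM in the unlasered and 662, 1018, 98.0 and 17.9 CPM in the lasered libraries, in the same order. Its libraries ranked exactly as those of H2-Ab1. The log2 difference was 3.09 ± 1.33 (SE; 95% interval 0.07 to 6.10, adjusted p = 0.210 by limma).

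H2-Eb1, the β chain of the I-E molecule, is transcribed on this background although its α-chain partner gene H2-Ea is defective in C57BL/6 mice. It was read at 14.2, 3.62 and 42.9 CPM in unlasered and at 539, 800, 73.0 and 11.7 CPM in lasered libraries. Again lasered 1 and 2 were far above the rest and lasered 4 was below 2 of the unlasered libraries, unlasered 1 and 3. The log2 difference was 3.28 ± 1.36 (SE; 95% interval 0.20 to 6.37, adjusted p = 0.195 by limma). Without lasered 4 the difference was 4.45 and the adjusted p by limma 0.0499, which made H2-Eb1 the 1 member called there. Over all alternatives tried its adjusted p by limma or edgeR ranged from 0.0499 to 0.738.

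Cd74, the invariant chain (chromosome 18, 60803848 to 60812652, GRCm38), had the highest level of the group per kilobase of exon in 6 of the 7 libraries, the exception being unlasered 2, where H2-DMb1 led. It was read at 124, 43.8 and 245 CPM in unlasered libraries and at 1808, 2989, 252 and 72.8 CPM in lasered libraries. Lasered 3 exceeded unlasered 3 by little, and lasered 4 lay below unlasered 1. The log2 difference was 2.34 ± 1.19 (SE; 95% interval -0.36 to 5.04, adjusted p = 0.286 by limma). The entry also holds reads that overlap a microRNA gene, Mir5107, with which it shares 12 exonic bases. H2-Aa, H2-Ab1, H2-Eb1 and Cd74 ranked the 7 libraries in a single order, from lasered 2 through lasered 1, lasered 3, unlasered 3, unlasered 1 and lasered 4 to unlasered 2. Together these 4 genes took 0.387% and 0.630% of all reads in lasered 1 and 2, 0.0537% and 0.0131% in lasered 3 and 4, and 0.0199%, 0.0062% and 0.0431% in unlasered 1, 2 and 3.

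**Figure D2:**
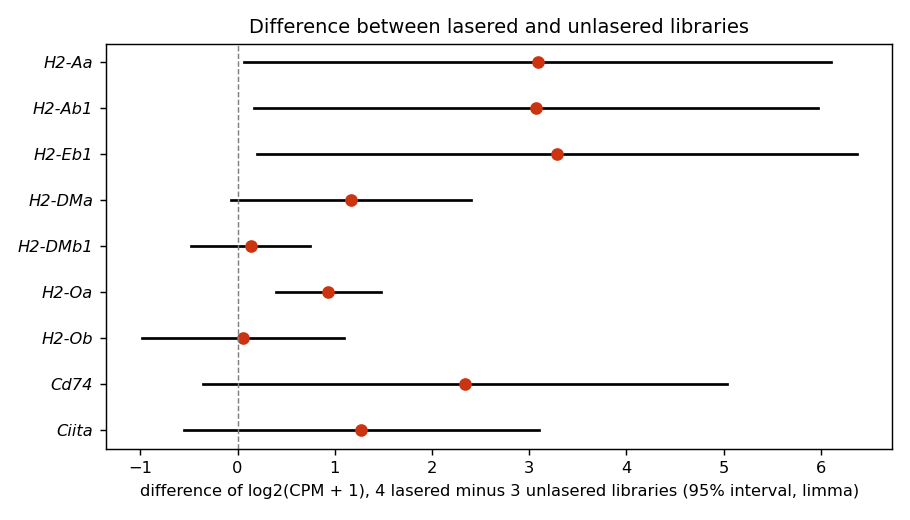
Difference of log2(CPM + 1) between 4 lasered and 3 unlasered libraries for each gene (point), with its 95% interval from limma (line); the dashed line marks no difference. The intervals of H2-Aa, H2-Ab1, H2-Eb1 and H2-Oa lie above 0 before adjustment over all genes, and the H2-Oa interval, 0.39 to 1.47, is the narrowest of the group.

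H2-DMa and H2-DMb1 encode the α and β chains of the peptide exchanger H2-DM. H2-DMa was read at 23.7, 17.3 and 20.7 CPM in unlasered and at 72.7, 122, 30.4 and 18.0 CPM in lasered libraries. Its unlasered libraries lay close together, 3 lasered libraries stood above them all, and lasered 4 was among them. On the log2 scale the difference was 1.17 ± 0.55 (SE; 95% interval -0.06 to 2.41, adjusted p = 0.243 by limma). H2-DMa shares 360 exonic bases, 10.4% of its exonic sequence, with Brd2 on the opposite strand, and the library kit does not mark strand. Brd2 was read at 74.1 to 111 CPM in unlasered and 62.3 to 83.5 CPM in lasered libraries.

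H2-DMb1 did not follow its partner. It was read at 80.0, 70.6 and 55.7 CPM in unlasered and at 71.6, 126, 54.0 and 64.1 CPM in lasered libraries. Only lasered 2 stood above the unlasered libraries, and lasered 3 was the lowest of all 7. On the log2 scale it differed by 0.13 ± 0.27 (SE; 95% interval -0.47 to 0.74, adjusted p = 0.814 by limma). H2-DMb2, the neighbouring copy, was read at 28.2, 21.8 and 19.1 CPM in unlasered and at 45.0, 77.1, 22.5 and 24.0 CPM in lasered libraries, with a log2 difference of 0.68 (adjusted p = 0.341 by limma). The longest protein-coding transcripts of the pair were 95.5% identical over 1058 aligned bases, so the split of reads between them is uncertain.

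H2-Oa and H2-Ob encode the chains of H2-O, which restrains H2-DM and is best known from B cells. H2-Oa was read at 6.02, 6.60 and 4.44 CPM in unlasered and at 13.8, 15.7, 9.21 and 9.16 CPM in lasered libraries. It was the 1 member of the 9 in which the groups did not overlap, and 10.4% of all genes tested were likewise higher in every lasered library. Its log2 difference was 0.93 ± 0.24 (SE; 95% interval 0.39 to 1.47), and the adjusted p of 0.0501 by limma fell just short of the threshold. It passed with a pseudocount of 0.1 (adjusted p = 0.0494 by limma), with median-of-ratios scaling (0.0310) and by edgeR (0.0453), and over all alternatives ranged up to 0.365. H2-Oa shares 321 exonic bases, 22.8% of its exonic sequence, with the antisense gene BC051537. Without strand, a read that lies within these bases could come from either gene. The H2-Oa entry names no further gene, and the sources used here do not say how reads there were assigned. BC051537 was read at 5.14, 6.60 and 5.0 CPM in unlasered and at 12.4, 13.3, 7.56 and 9.78 CPM in lasered libraries, close to the H2-Oa level in each (log2 difference 0.82, adjusted p = 0.0616 by limma). Its part in the H2-Oa result was not tested.

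H2-Ob was read at 12, 13.8 and 8.44 CPM in unlasered and at 15.9, 27.3, 6.69 and 5.98 CPM in lasered libraries. Lasered 1 and 2 were the highest and lasered 3 and 4 the lowest of all 7 libraries. Its log2 difference was 0.05 ± 0.46 (SE; 95% interval -0.99 to 1.09, adjusted p = 0.962 by limma), and its sign turned when unlasered 3, lasered 1 or lasered 2 was left out.

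Ciita, the transactivator, was the least abundant member per kilobase in each of the 7 libraries. It was read at 1.32, 0.934 and 0.472 CPM in unlasered libraries and at 8.93, 14.3 and 1.79 CPM in lasered 1, 2 and 3, and was at 0 in lasered 4. These values rest on 27, 32 and 17 reads in the unlasered and on 394, 644, 82 and 0 reads in the lasered libraries. The 0 of 37133297 reads in lasered 4 allows a level of up to 0.0808 CPM, so that lasered 2 was at least 178-fold and lasered 1 at least 110-fold higher than lasered 4. Lasered 1, 2 and 3 stood above every unlasered library and lasered 4 stood below them all. The log2 difference between the groups was 1.27 ± 0.81 (SE; 95% interval -0.55 to 3.10, adjusted p = 0.396 by limma). Ciita shares 329 of its exonic bases, 3.45%, with Dexi on the opposite strand, which was read at 12.3 to 34.3 CPM.

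The lasered libraries differed from each other in these genes far more than they did in most genes. The highest lasered library exceeded the lowest by 56.7-fold for H2-Aa, 52.4-fold for H2-Ab1, 68.6-fold for H2-Eb1 and 41.1-fold for Cd74, against 6.76-fold for H2-DMa, 4.57-fold for H2-Ob, 2.33-fold for H2-DMb1 and 1.71-fold for H2-Oa. On the log2 scale the SD among lasered libraries was 2.65 for H2-Aa, 2.62 for H2-Ab1, 2.77 for H2-Eb1, 2.49 for Cd74, 1.79 for Ciita and 1.21 for H2-DMa. The median SD over all genes tested was 0.21. For H2-Aa, H2-Ab1, H2-Eb1 and Cd74 at least 99.97% of genes tested had a smaller SD, for H2-Oa 81.2% had.

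The 3 unlasered libraries also spread in the surface chain genes. There the highest library exceeded the lowest by 12.5-fold for H2-Aa, 11.9-fold for H2-Eb1, 8.36-fold for H2-Ab1 and 5.60-fold for Cd74, with unlasered 3 highest and unlasered 2 lowest each time. The other members did not share that spread, with ratios of 1.37 for H2-DMa, 1.44 for H2-DMb1, 1.49 for H2-Oa, 1.64 for H2-Ob and 2.80 for Ciita. Ciita was in fact lowest in unlasered 3, the unlasered library with the most H2-Aa, H2-Ab1, H2-Eb1 and Cd74, though on 17 to 32 reads. All 9 members had a larger SD among lasered than among unlasered libraries, as did 35.8% of all genes tested.

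**Figure D3:**
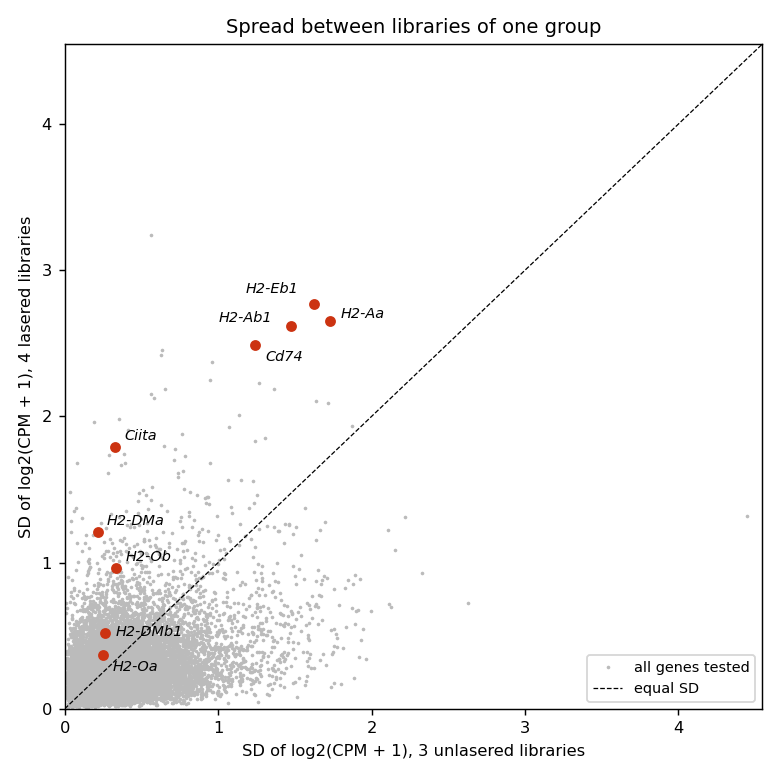
SD of log2(CPM + 1) among the 3 unlasered (x axis) and the 4 lasered (y axis) libraries for all 17496 genes tested (grey) and the 9 members (red); the dashed line marks equal SD. H2-Aa, H2-Ab1, H2-Eb1 and Cd74 are high on both axes, Ciita, H2-DMa and H2-Ob on the lasered axis, and H2-DMb1 and H2-Oa lie near the bulk of genes.

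Within a library, the ratios among H2-Aa, H2-Ab1, H2-Eb1 and Cd74 varied less than the levels of these genes. Per kilobase of exon, H2-Aa stood at 0.362 to 0.583 of H2-Ab1 and H2-Eb1 at 0.504 to 0.847 of H2-Ab1 over all 7 libraries, with overlapping groups. Per kilobase, Cd74 was 5.78, 7.05 and 4.73 times H2-Ab1 in the unlasered and 3.22, 3.05, 3.40 and 3.89 times in the lasered libraries. That ratio did not overlap between the groups, lasered 4 included. Per kilobase, H2-DMa was 0.144, 0.120 and 0.181 of H2-DMb1 in unlasered and 0.495, 0.472, 0.275 and 0.137 of it in lasered libraries, so lasered 4 again lay with the unlasered ones. Against H2-Ab1 the H2-DMa ratio per kilobase varied more than the H2-DMa level, from 0.0606 in lasered 2 to 1.36 in unlasered 2. The H2-Oa to H2-Ob ratio per kilobase was 1.82 to 2.01 in unlasered and 3.31, 2.20, 5.27 and 5.86 in lasered libraries. These ratios were described without a test and rest on exon lengths summed over all annotated transcripts.

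**Figure D4:**
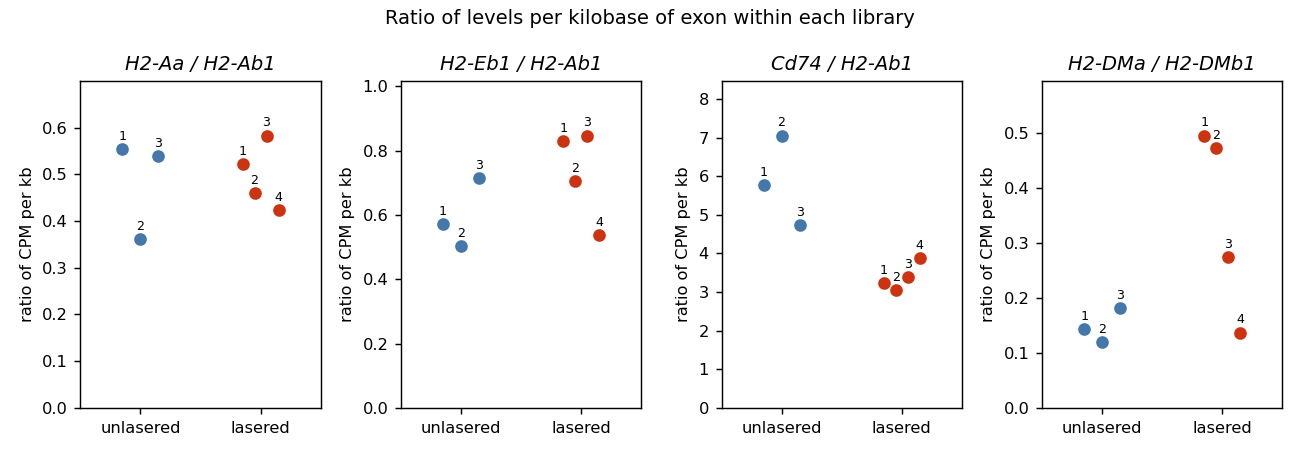
Ratio of levels (CPM per kilobase of exon) between pairs of members within each library, for unlasered (blue) and lasered (red) libraries with the replicate number above each point. The Cd74 to H2-Ab1 ratio is 4.73 or more in the unlasered and 3.89 or less in the lasered libraries, while the H2-Aa and H2-Eb1 ratios to H2-Ab1 overlap between the groups.

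Genes upstream and downstream of the members were followed in lists. Among the other class II genes, no entry bore the name H2-Ea, and the entry H2-Ea-ps, annotated as a polymorphic pseudogene, was under 3 reads in all 7 libraries. H2-Eb2 reached at most 0.805 CPM, and H2-DMb2, the 1 gene of that list tested, did not pass. None of the 7 promoter factors (Rfx5, Rfxank, Rfxap, Nfya, Nfyb, Nfyc and Creb1) passed, and their summed level was 231 to 284 CPM in unlasered and 208 to 230 CPM in lasered libraries. None had lasered 1 and 2 as its 2 highest libraries, an order that 8 of the 9 members and 11.4% of all genes tested showed.

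None of the 10 genes of class II antigen processing passed (Ctss, Ctsb, Ctsl, Ctsd, Lgmn, Ifi30, Sppl2a, March1, Cd9 and Hspa8), and their median log2 difference was -0.09. Ifi30, a thiol reductase that unfolds antigens for class II loading, was read at 29.6, 35.2 and 29.7 CPM in unlasered and at 72.9, 85.9, 48.4 and 34.0 CPM in lasered libraries (log2 difference 0.83, adjusted p = 0.123 by limma). It was the 1 gene of that list with lasered 1 and 2 highest. Ctss, the protease that makes the final cut in CD74, had a log2 difference of 0.34 (adjusted p = 0.196 by limma), and Ctsl, which does so in the thymus, 0.55 (adjusted p = 0.0711).

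None of the 8 tested genes of the interferon-γ route to Ciita passed either, among them Ifngr1, Jak1, Irf1 and Socs1. Ifng itself was under 3 reads in all 7 libraries. Irf1 lay below in each lasered library, at 118 to 132 CPM against 151 to 172 CPM (log2 difference -0.41, adjusted p = 0.0661 by limma).

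Some genes of other cell types moved with the class II genes from library to library. In bulk libraries, fewer cells of a type and less RNA per cell cannot be told apart. Of 16 dendritic cell genes, 13 were tested, and Ccl22, a chemokine of mature dendritic cells, was called. It rose from 0.196, 0.0292 and 0.0555 CPM in unlasered to 18.1, 36.4, 8.89 and 3.53 CPM in lasered libraries (log2 difference 3.62, adjusted p = 0.0131 by limma), a call lost when lasered 1 and 2 were both left out. Of the 13, 8 (Flt3, Itgax, Cd209a, Ccr7, Ccl22, Clec10a, Kit and Dpp4) had lasered 1 and 2 as their highest libraries. Ccr7, the receptor that leads dendritic cells to lymph nodes, was read at 4.16, 0.263 and 0.0278 CPM in unlasered and at 74.8, 68.5, 5.34 and 3.10 CPM in lasered libraries (adjusted p = 0.103 by limma). Flt3, the growth factor receptor of dendritic cells, was read at 3.28, 0.643 and 2.67 CPM and at 15.5, 27.5, 1.74 and 3.42 CPM (adjusted p = 0.262 by limma). Ccl17 was at 0 in all unlasered libraries and in lasered 4, and at 0.408, 11.9 and 4.53 CPM in lasered 1, 2 and 3.

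Not all dendritic cell genes did so. Zbtb46, a factor of classical dendritic cells, was read at 14.9 to 36.6 CPM in unlasered and 23.5 to 26.3 CPM in lasered libraries, and Irf4 at 16.2 to 25.1 and 17.8 to 25.6 CPM. Xcr1 stayed at or below 2.48 CPM and Clec9a at or below 0.245 CPM. Batf3, too low to test, was again highest in lasered 1 and 2, at 1.11 and 2.52 CPM against 0.222 to 0.636 CPM in the other libraries. Siglech, which microglia express too, and Fscn1 make up most of the list's summed level, which was 1076 to 1221 CPM in unlasered and 859 to 1147 CPM in lasered libraries. Both genes were lower in lasered 1 and 2 than in any unlasered library. Siglech was read at 930, 803 and 761 CPM in unlasered and at 527, 542, 669 and 836 CPM in lasered libraries. Fscn1 was read at 222, 229 and 270 CPM and at 102, 83.1, 98.4 and 244 CPM. The whole list summed to 897 and 945 CPM in lasered 1 and 2, below every unlasered library. A trim made after the values were seen left out Siglech and Fscn1. The other 14 genes summed to 69.3, 43.5 and 99.9 CPM in unlasered and to 268, 320, 92.1 and 67.9 CPM in lasered libraries. Only then were the sums of these dendritic cell genes highest in lasered 1 and 2. The part of these transcripts in the class II levels was not tested.

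Of 9 monocyte genes, 6 were tested and none passed. Ccr2, the receptor that draws monocytes to injured tissue, was read at 5.63, 6.37 and 14.2 CPM in unlasered and at 81.5, 128, 19.7 and 7.57 CPM in lasered libraries (log2 difference 2.03, adjusted p = 0.186 by limma). Ly6c2, whose product was gated out, did not exceed 0.891 CPM in any library. Plac8 and F10 were lowest in lasered 4, as was Chil3. The list summed to 25.2 to 81.6 CPM in unlasered and to 142, 198, 34.4 and 11.7 CPM in lasered libraries, and its part in the class II levels was not tested.

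None of the 6 B cell genes tested of 9 passed, and the list summed to 152.0 to 251.4 CPM in unlasered and 153 to 175 CPM in lasered libraries. The 7 T cell genes, none of them high enough to test, summed to 2.18 and 2.67 CPM in lasered 1 and 2. They summed to 0.740 and 1.02 CPM in lasered 3 and 4 and to 1.14 to 1.97 CPM in unlasered libraries. Most of the sum in lasered 1 and 2 was Cd4, at 1.34 and 1.72 CPM there against 0.672 CPM or less in every other library. Cd3d and Trac were also highest in lasered 1 and 2, at 0.181 CPM or less, while Cd3e, Cd3g, Cd8a and Lck were not. The border macrophage list (8 genes, 7 tested) held 2 genes that fell, Pf4 and Ms4a7, and summed to 2213 to 2759 CPM in unlasered and 1377 to 1594 CPM in lasered libraries, calls likewise lost without lasered 1 and 2. None of the 8 microglial genes tested, none of the 2 endothelial genes and none of the 3 Müller glia genes passed. The endothelial list summed to 13 to 49.8 and 10.9 to 24.4 CPM, and the Müller glia list to 419 to 778 and 162 to 474 CPM, in unlasered and lasered libraries. Of 11 rod photoreceptor genes 10 were lower in lasered libraries (0 of 11 without lasered 1 and 2), and the list summed to 1761, 16147 and 4676 CPM in unlasered and to 837, 366, 668 and 250.8 CPM in lasered libraries. The highest rod sum was in unlasered 2, the library with the least H2-Aa, H2-Ab1, H2-Eb1 and Cd74, and the part of rod transcripts in these levels was not tested.

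**Figure D5:**
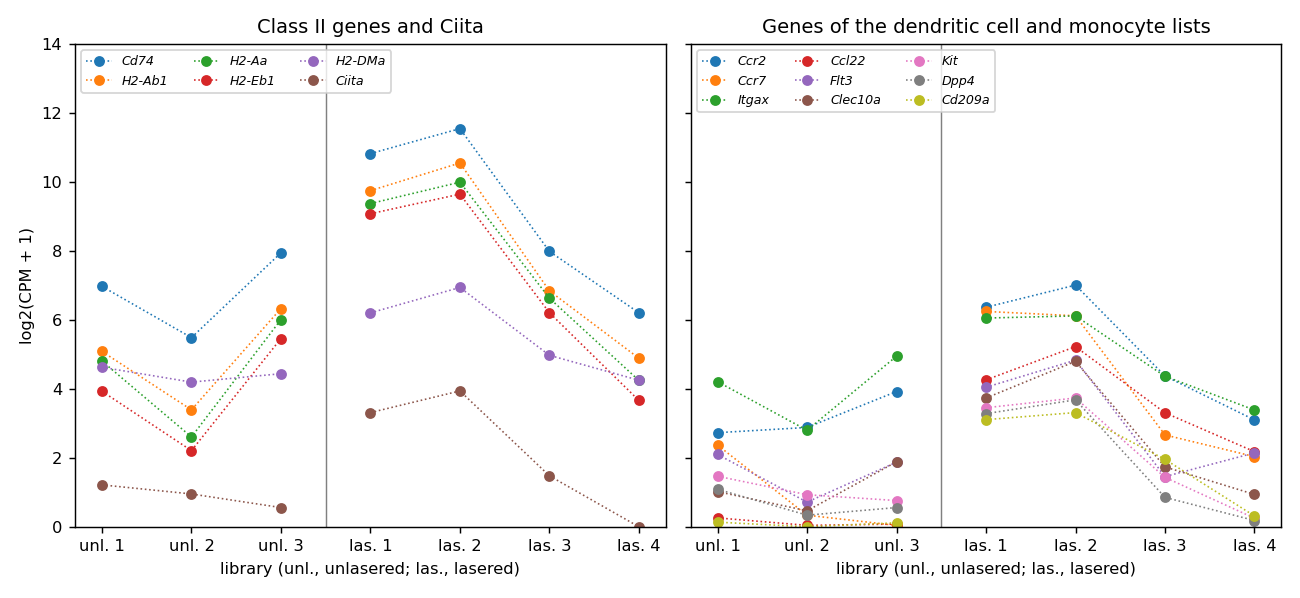
Level, as log2(CPM + 1), in each library for 6 of the members (left) and for 8 dendritic cell genes and Ccr2 (right), the latter chosen for the plot after their values were seen; dotted lines join the points of a gene within a group and carry no order. In both panels the points of lasered 1 and 2 stand above those of lasered 3 and 4.

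Outside the members, the genes whose level ran most like the mean log2 level of H2-Aa, H2-Ab1, H2-Eb1 and Cd74 over the 7 libraries were taken from 10782 tested genes that averaged 10 CPM or more in either group. The points share the 7 libraries and their depth, and the order rests largely on lasered 1 and 2, which were the 2 highest libraries for each of the 10 genes listed. First was Gm2a, a lysosomal lipid-binding protein, with a Pearson r of 0.99 and levels of 418 to 522 CPM in unlasered and 741, 784, 556 and 477 CPM in lasered libraries. Relative to its level it varied far less than the class II genes. Baz1a, Helb, Clec10a, Tbc1d16, Ifi203, Tpm4, Ccr2, Samhd1 and Smurf2 followed, with r from 0.97 to 0.99. Clec10a, a lectin of a subset of dendritic cells and macrophages, was read at 1.03, 0.380 and 2.69 CPM in unlasered and at 12.3, 26.8, 2.33 and 0.916 CPM in lasered libraries. Among the members outside that mean, r was 0.95 for H2-DMa, 0.89 for Ciita, 0.75 for H2-Oa, 0.59 for H2-Ob and 0.50 for H2-DMb1.

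When lasered 1 and 2 were both left out, an alternative chosen after the data were seen, the log2 differences were 0.96 for H2-Aa, 0.93 for H2-Ab1, 1.07 for H2-Eb1, 0.30 for Cd74, 0.19 for H2-DMa and 0.62 for H2-Oa, and those of H2-DMb1 and H2-Ob were -0.21 and -0.74. Adjusted p-values by limma then ran from 0.301 to 0.925, with 24 genes called in all, and Ciita no longer met the filter on low values. The lasered group then held 2 libraries.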

How the data were processed

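RNA was sequenced from sorted rMG of 7 pools of Irf8 KO mice, 3 unlasered and 4 lasered, grouped by their labels. Per the study's methods, the authors trimmed reads with cutadapt, removed duplicates, aligned them with bowtie2 to the mouse genome (GRCm38 in the submitters' processing notes) and counted them with HTSeq on Ensembl annotation 90, from a SMARTer and Nextera kit that does not mark strand. The deposited columns are headed TPM but hold CPM: each value is a whole multiple of 1 read's worth, all columns have the same sum, and whole reads were recovered for 100% of values (tolerance 0.0001 CPM). An entry naming several genes holds joint reads.

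Genes reaching 1 CPM in 3 or more libraries were tested with limma 3.58.1 in R 4.3.3 (trend and robust variance, log2(CPM + 1), Benjamini-Hochberg). The fit was run on simulated data with 1 dispersion for all genes and the same change in every lasered library. That check does not cover genes that spread between lasered libraries as widely as H2-Aa, H2-Ab1, H2-Eb1 and Cd74. edgeR 4.0.16 on recovered reads, another pseudocount, no filter, median-of-ratios scaling, a replicate block and left-out libraries were alternatives. Exon lengths and positions came from GENCODE M21 (GRCm38), which matched 99.8% of entries. Promoter letters were searched in RefSeq windows. Named genes were the 9 members, the listed pathway and cell type genes and the 10 nearest in Pearson correlation. The members and lists were chosen with earlier results of these data known. A few listed genes are not reported here.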

Additional observations from a re-analysis of the deposited data

Results flagged for a closer look

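Within the 4 lasered libraries, 93 gene levels were screened for a library standing apart from the other 3 (Dixon's test of the gap over the range, 95% critical value), which chance does for about 1 group in 20. Of these, 5 were found, a share close to the rate that chance gives, and none was a class II gene. Only genes with at least 3 reads in every lasered library were screened, so Ciita, at 0 reads in lasered 4, was not among them. Fscn1, an actin bundler of mature dendritic cells, was at 243.8 CPM in lasered 4 against 83.1 to 102 CPM in the other lasered libraries. In unlasered libraries Fscn1 was at 222 to 270 CPM, so lasered 4 lay within the unlasered range and the other lasered libraries below it. Tmem119, a microglial surface marker, was at 1739 CPM in lasered 4 against 1189 to 1219 CPM. Irf8 was at 582 CPM in lasered 4 against 463 to 475 CPM. Kdr, an endothelial receptor, was at 6.56 CPM in lasered 3 against 2.29 to 2.51 CPM. Lck, a T cell kinase, was at 0.295 CPM in lasered 1 against 0.646 to 0.673 CPM.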

How the results depend on the processing

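The 0 members called became 1 with a pseudocount of 0.1, with median-of-ratios scaling and by edgeR, in each case H2-Oa (log2 differences 1.04, 1.01 and 1.07), and 0 to 1 with a library left out, the 1 being H2-Eb1 without lasered 4 (its difference ranged from 2.45 to 4.45). The 1213 genes called of 17496 (676 higher, 537 lower) became 385 without the filter (212 and 173), 24 with lasered 1 and 2 left out (10 and 14) and 264 to 1248 with 1 library left out (150 to 815 and 114 to 433). Calls moved by over 1.5 times without unlasered 1 (774), unlasered 2 (663), lasered 1 (417), lasered 2 (264), lasered 3 (436) or lasered 4 (797). Same-numbered libraries did not deviate together (correlations -0.18, -0.13 and -0.02, against -0.11 to 0.21 for libraries with different numbers). So few correlations cannot settle whether the numbers pair libraries. A replicate block, in which lasered 4 has no partner, gave 3 calls (2 higher and 1 lower, no member). H2-DMb1 differences turned sign without unlasered 3 or lasered 2 (-0.11 to 0.29 with 1 library left out) and without lasered 1 and 2 (-0.21), those of H2-Ob without unlasered 3, lasered 1 or lasered 2 (-0.33 to 0.34) and without lasered 1 and 2 (-0.74). The SD among lasered libraries of Ciita was 3.24 with a pseudocount of 0.1, and that of H2-DMb1 was 0.20 to 0.64 with a lasered library left out. Calls in the lists were, with 1 library left out, 1 to 3 for dendritic cells (3 without lasered 4), 0 to 2 for border macrophages (1 without unlasered 1 or lasered 4, 0 without unlasered 2, lasered 1, 2 or 3), 2 to 11 for rods (6 without unlasered 3 or lasered 4, 4 without lasered 3, 2 without lasered 2), 0 to 1 for antigen processing (Ifi30, without lasered 4), interferon-γ (1 without lasered 4 or unlasered 3) and microglia (P2ry12, without lasered 4). Dendritic cell calls were 2 with a pseudocount of 0.1 and by edgeR, and 0 with the block or without lasered 1 and 2. Border macrophage calls were 1 with median-of-ratios scaling and 0 without the filter, with the block or without lasered 1 and 2. Rod calls were 3 without the filter and 0 with the block or without lasered 1 and 2, and median-of-ratios scaling called 1 antigen processing gene, Ctsl. The cause was not tested, beyond the fewer libraries or more genes that such fits hold. Of the other recomputed values, 349 kept their direction and side of the threshold or stayed within the spread. Cd74 could not be recomputed without its joint reads, since the values are not split, and the other 8 members have no joint reads. Ciita, at 0 reads in lasered 4 (up to 0.0808 CPM) and 14.3 CPM at most, is the member that depth limits most.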
